A study of Mus musculus with 454 samples.

Results

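The neurons described here are vagal sensory neurons with high messenger RNA levels of Sst, Ctxn3, Smagp, Chrnb3 and Cysltr2 in a droplet (10x Genomics) library of mouse nodose ganglion. Members were chosen by measured values. Each barcode was scored by the mean of log2(CPM + 1) over those 5 genes, where CPM is the count of unique molecular identifiers (UMIs) per 1000000 UMIs of the barcode, and the 55 barcodes with the highest score of 1108 were taken. They are set against the 1012 other barcodes with Snap25, a synaptic gene of neurons, at 500 CPM or more. Both data sets came from wild type C57BL/6 mice. The droplet library held pooled ganglion cells of animals aged 6 weeks and has no replicate. The second set held cells of 34 mice aged 8 to 12 weeks that were picked and sequenced singly by Smart-seq2, and 99.1% of its samples passed a minimum of 2000 detected genes. A mouse and a target code (GastG, GastP, IntP, IntM, IntD, IntL, Port or na) are written over each cell in the read table. The sources used here do not expand these codes, and Gast and Int below stand for all codes that begin so.

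The nodose ganglion holds the cell bodies of vagal afferents, which send 1 branch to an inner organ and another to the brainstem. Somatostatin, the product of Sst, is an inhibitory neuropeptide that is cut from a longer precursor and released from dense core vesicles. In somatosensory ganglia of the mouse, Sst marks a small set of itch neurons that also express Nppb, Il31ra and Cysltr2, and Cysltr2 encodes a receptor for cysteinyl leukotrienes, lipids made by mast cells and other leukocytes. Chrnb3 encodes the beta 3 subunit of nicotinic acetylcholine receptors, which assembles with other subunits and in some neurons sits beside the alpha 6 subunit Chrna6. Ctxn3 encodes cortexin 3, a small membrane protein of neurons, and Smagp a small glycosylated transmembrane protein.

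The genes of the score lie apart in the genome. In the GRCm38 build with GENCODE M21 models, Sst is at chr16:23889573-23890958 on the minus strand, Smagp at chr15:100621339-100636940 on the minus strand, Chrnb3 at chr8:27368711-27399730 on the plus strand and Cysltr2 at chr14:73025603-73049114 on the minus strand. Ctxn3 is on chromosome 18.

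The stretches below are shown because, of the promoter windows looked at, those of Sst and Cartpt hold the motif TGACGTCA, the cAMP response element. They are RefSeq sequence of the GRCm38.p6 build, printed 5′ to 3′ on the minus strand, with the motif in capitals. The motif reads the same on both strands.

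Sst, chr16:23890875-23890902: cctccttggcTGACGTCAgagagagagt

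Cartpt, chr13:99900778-99900805: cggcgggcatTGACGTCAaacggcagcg

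The motif of Sst starts 48 bases before its RefSeq start. Both stretches fall inside the longer GENCODE gene models. The same letters were found in 508 of 32851 RefSeq promoter windows of 250 bases (1.55%). They were absent from the windows of Smagp, Cysltr2, Calca and Nmb. Windows of Ctxn3 and Chrnb3 were not among those looked at. A match of letters describes the window only.

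Ctxn3 UMIs were found in every member, while Sst UMIs were found in some. Ctxn3 ranged from 9.98 to 886.5 CPM over the 55 members, with a median of 264.3. Chrnb3 ranged from 0 to 437.8 CPM with a median of 187.9, and Cysltr2 from 0 to 260.9 CPM with a median of 52.5. Sst ran from 0 to 1951 CPM with a median of 8.69, and Smagp from 0 to 114.5 CPM with a median of 7.95. In the other neurons the median of all 5 genes was 0. Of the members 29 had a Sst UMI, 26 had none, and 20 had at least 50 CPM, so the name Sst describes only some of them. The Ctxn3 UMIs of the 55 members numbered as few as 1 in the barcode of rank 54 and 3 in those of ranks 31 and 53. A Ctxn3 UMI was also found in 17.7% of other neurons and 4.88% of the barcodes with little Snap25, so a few UMIs do not set a member apart. A Sst UMI was found in 52.7% of members (median depth 93665 UMIs), in 9.78% of other neurons (median 55228.5) and in 2.44% of the 41 remaining barcodes with little Snap25 (median 15809). Members held 90.3% of all Sst UMIs of the 1108 barcodes, 63% of those of Ctxn3, 55.9% of Smagp, 49.8% of Cysltr2 and 48.4% of Chrnb3.

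**Figure D1:**
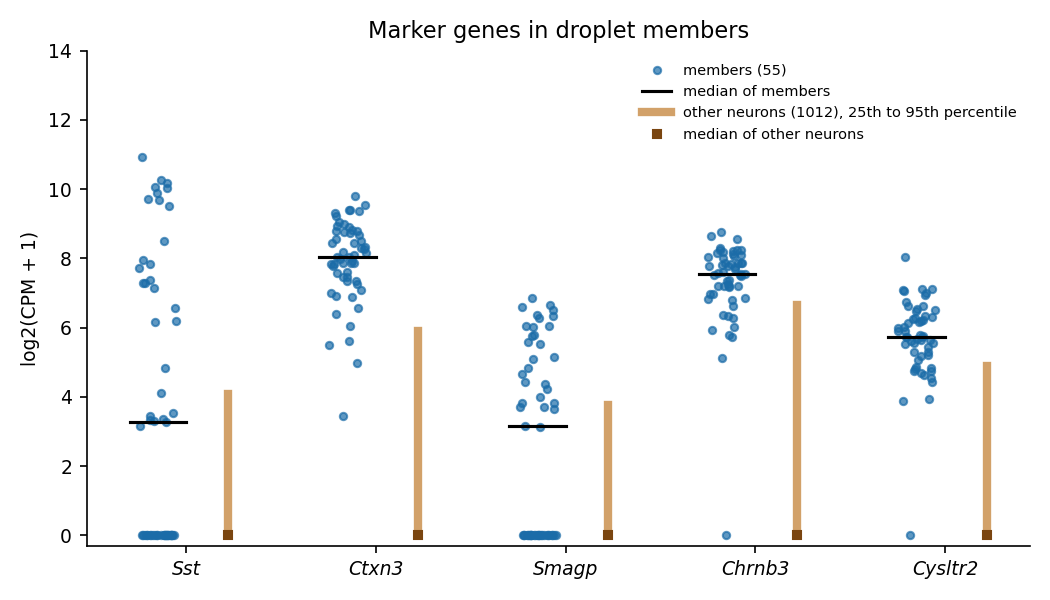
Level of the 5 score genes in each droplet member (dots, log2(CPM + 1), black bars at the medians) beside the 1012 other neurons (brown bar from the 25th to the 95th percentile, square at the median). Ctxn3 is above 0 in all 55 members, while Sst spans from 0 to 1951 CPM with 26 members at 0.

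The scores form a slope with no gap at its end. The highest score was 7.86, the last 5 members lay between 4.09 and 4.031, and the next barcode had 3.99. The median of all barcodes was 0. Of the members 16 had UMIs of 3 score genes, 22 of 4 and 17 of all 5, against 55, 7 and 0 of the other neurons. A single member, ranked 37 by score, fell below the Snap25 level required of the other neurons, at 425.7 CPM. Members were deeper, from 18484 to 169263 UMIs against 13505 to 167956, and 18 of 55 members and 59 of 1012 other neurons had more than 2 times the median depth of the other neurons. No doublet caller was run, and the part of depth or doublets in the values was not tested. The satellite glia markers summed to a median of 272.9 CPM in members (highest 5968) and 285.9 in other neurons, and those of Schwann cells to 462.3 and 300.04. Ptprc, Col1a1 and Npy, 1 marker each of immune cells, fibroblasts and sympathetic neurons, were at 0 UMIs in members, but their other markers were not. The sympathetic markers summed to a median of 51.5 CPM in members (highest 492.4) and 42.4 in other neurons. Those of immune cells and fibroblasts had medians of 0 and reached 12.8 and 41.2 CPM in single members.

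Because the score came from the same 1 library, member values are described with no test, as ratios of summed CPM with exact 95% Poisson intervals that cover counting error only. Among 14546 genes with 20 UMIs, 410 (2.82%) were over 2-fold higher in members and 2212 (15.2%) over 2-fold lower, with a median ratio of 0.903. Sst itself was 109.7-fold higher (92.4 to 131.1), Ctxn3 20.1-fold, Smagp 17.3-fold, Cysltr2 11.6-fold and Chrnb3 10.98-fold, which restates the choice. The size of some ratios changed in 2 settings of depth, which also changed the cells compared. Without barcodes over 100000 UMIs (30 members and 917 other neurons left) Sst stood at 55.9-fold and Tmem233, described next, at 15.5-fold. With all barcodes thinned to 13505 UMIs and members chosen anew (47 shared), they stood at 172.2-fold and 12.8-fold. The part of depth itself was not tested. Outside the gene lists the highest ratios belonged to Cntn4, a neural cell adhesion molecule, at 13.3-fold (10.3 to 17.1) and to Pde11a, a phosphodiesterase of cAMP and cGMP, at 8.89-fold. Ifi27l2a, an interferon-induced gene, followed at 7.99-fold and the membrane protein gene Tmem233 at 7.59-fold. The calcium-binding S100a6, Tnfaip8, Emp3, Lmo7, Dcdc2a, St6galnac5, Col6a4 and Lgals3 lay between 3.93-fold and 5.16-fold. Lmod1, which encodes an actin nucleator of muscle, had 0 UMIs in members, and its ratio was at most 0.0802 if 3 UMIs are allowed for a count of 0.

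Nicotinic receptor genes differed in both directions. Chrna6, which lies next to Chrnb3 at chr8:27403212-27413944, was at 46.1 CPM in members and 8.84 CPM in other neurons (5.21-fold, 4.47 to 6.07). The neighbours Chrna5, Chrna3 and Chrnb4, within chr9:54980880-55048779, were at 0.106, 0.478 and 0.470 times their level in other neurons. Chrna4 stood at 0.0855 times that level and Chrnb2, the common beta subunit, at 0.922. Of the 9 nicotinic genes with 20 UMIs 3 were over 2-fold higher, counting Chrnb3 of the score, and 5 over 2-fold lower. The third, the muscle-type subunit Chrnb1, rests on 6 UMIs in members and has an interval of 0.850 to 6.18.

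Receptors for gut hormones and metabolites were low in members. Of 16 measured, 11 lay below 0.5 times the other level and 0 above 2-fold, and the median ratio was 0.249. Cckar, the receptor for the satiety hormone cholecystokinin, was at 23.1 CPM in members and 325.6 in other neurons (0.0708-fold, 0.0588 to 0.0846). Htr3a, a subunit of the serotonin-gated channel, was at 232.2 against 565.7 CPM. The proton-sensing receptor Gpr65 was within 2-fold, at 72.6 CPM against 51.2.

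Among 16 neuropeptide genes 4 stood over 2-fold higher in members and 8 stood over 2-fold lower. Cartpt, which encodes the CART peptides, was at 2310 CPM in members and 737.0 in other neurons (3.13-fold), and Nmb, which encodes neuromedin B, was 3.17-fold higher. Vip and Gal were at 0.0437 and 0.0325 times their level in other neurons, and Penk and Grp had 0 UMIs in members. Other members of the higher group were Sst, which is of the score, and Nppb, described below. The peptide processing genes held 0 of 13 over 2-fold higher and 3 lower.

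Channels for touch and heat differed between relatives. Piezo1, a mechanically gated channel, was at 29.3 CPM in members and 5.63 in other neurons (5.20-fold, 4.28 to 6.30). Its relative Piezo2, the main touch channel of sensory neurons, was at 2.08 and 45.1 CPM, a ratio of 0.0461. Kcnk18, a potassium channel of sensory neurons, was 2.18-fold higher and Tmc3 was at 0.0573 times the other level. Of 12 TRP channels only Trpm3 was over 2-fold higher (2.14-fold), and 5 were over 2-fold lower. Trpv1, the capsaicin receptor, was at 92.4 and 146.4 CPM.

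Of 22 fibre type channels and cytoskeletal genes 1 was over 2-fold higher and 8 were lower. The higher one was Scn10a, the tetrodotoxin-resistant sodium channel of nociceptors, at 280.2 CPM in members against 134.6. Among 10 neurotrophic factor receptors 2 were over 2-fold higher and 1 lower. Gfra1 and Gfra2, co-receptors for GDNF and neurturin, were 3.27-fold and 3.19-fold higher. Ntrk3, the neurotrophin 3 receptor, rested on 3 UMIs in members and 2094 in other neurons. Pvalb, a marker of large proprioceptive neurons, had 0 UMIs. Among 24 transcription factors Casz1 (2.69-fold) and Isl2 (2.13-fold) were over 2-fold higher and 9 were lower. Leading genes of other vagal types were over 2-fold lower in 16 of 23 cases, with Dbh (3.84-fold) and Mfap5 (4.95-fold) the exceptions that were higher. Dissociation and injury genes held 1 of 14 over 2-fold lower, Sprr1a at 0.152, and 0 higher. When thinned, Sprr1a stood at 0.960.

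A single member carried the itch pattern of somatosensory ganglia. The barcode ranked 37 held 98.1% of the Nppb UMIs found in members, 38 of 40 of Il31ra, 31 of 46 of Osmr, 21 of 23 of Prdm12 and 16 of 18 of Htr1f. It had 0 UMIs of Chrnb3 and Smagp, 12 of Sst, 21 of Ctxn3 and 19 of Cysltr2, at a depth of 72828. Prdm12 is a transcription factor of neural crest-derived nociceptors, which in the vagal ganglia lie in the jugular part. Over all members Nppb was 22.99-fold higher (16.4 to 32.5) and Il31ra 16.2-fold. Without that barcode the ratios were 0.440 and 0.819, so both rested on it.

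When the neurons were clustered with the score genes left out of the variable genes, most members still fell together. Of the members, 36 lay in a cluster of 49 neurons led by Sst, Ctxn3, Cntn4, Cysltr2, Chrnb3, Ifi27l2a, Pde11a and Piezo1. A further 8 lay in a cluster of 44 led by Lig1, Aldh1a3 and Pde4c, where their summed Sst was 1.60 CPM. Another 5 lay in a cluster of 22 led by Tox3 and Tmem233, with Sst at 240.97 CPM that came mostly from 1 of them (83 UMIs, against 1, 2, 0 and 0 in the others), and 4 in a cluster of 56 led by Dbh and Mfap5, with Sst at 5.42 CPM. The last 2 lay in a cluster of 55 led by Camkv and Trpa1 and in one of 23 led by Prdm12, which held the barcode of rank 37. Of the 15 nearest neighbours of a member 63.5% were members, against 1.77% for other neurons. These are descriptions, since the genes used vary with the score.

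Members with much Sst and members with none differed in many genes besides Sst. The sets and their genes were chosen after the values had been seen, so no test is given here. The set with at least 50 CPM held 19 members, leaving out the barcode of rank 37, and the set with 0 Sst UMIs held 26. Their median depths were 111272 and 84289 UMIs, and 9 members between them had few Sst UMIs. The sets also differed in their clusters. Of the set with Sst, only rank 3 lay outside the cluster of 49 neurons. Of the set without, ranks 23, 33, 35, 42, 43, 44 and 47 lay in the cluster led by Lig1. Ranks 34 and 49 lay in that led by Tox3, 45 and 46 in that led by Dbh, and 51 in that led by Camkv. The part of cluster in the differences below was not tested. Of the other score genes Smagp had a median of 46.8 CPM with Sst (UMIs in 13 of 19) and 0 without (12 of 26), and Ctxn3 of 424.7 and 224.8. Chrnb3 had medians of 183.3 and 221.3 CPM and Cysltr2 of 59.3 and 53.3.

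Piezo1 had a median of 53.9 CPM (0 to 96.9) in the set with Sst and 3.93 CPM (0 to 65.7) in the set without. Cntn1, an adhesion molecule of axons, stood at 113.9 and 10.7 CPM, and Gpr65 at 60.7 and 0 CPM. S100a6 had medians of 3299 and 754.0 CPM. The opposite order was seen for Chrna3, at 6.12 CPM (0 to 201.7) with Sst and 139.2 CPM (0 to 360.2) without. Its partner Chrnb4 stood at 0 and 54.6 CPM, Trpv1 at 9.25 and 165.1 CPM, and Calca, which encodes the peptide CGRP, at 11.8 and 66.4 CPM. The ranges of the sets overlapped for each of these genes.

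**Figure D2:**
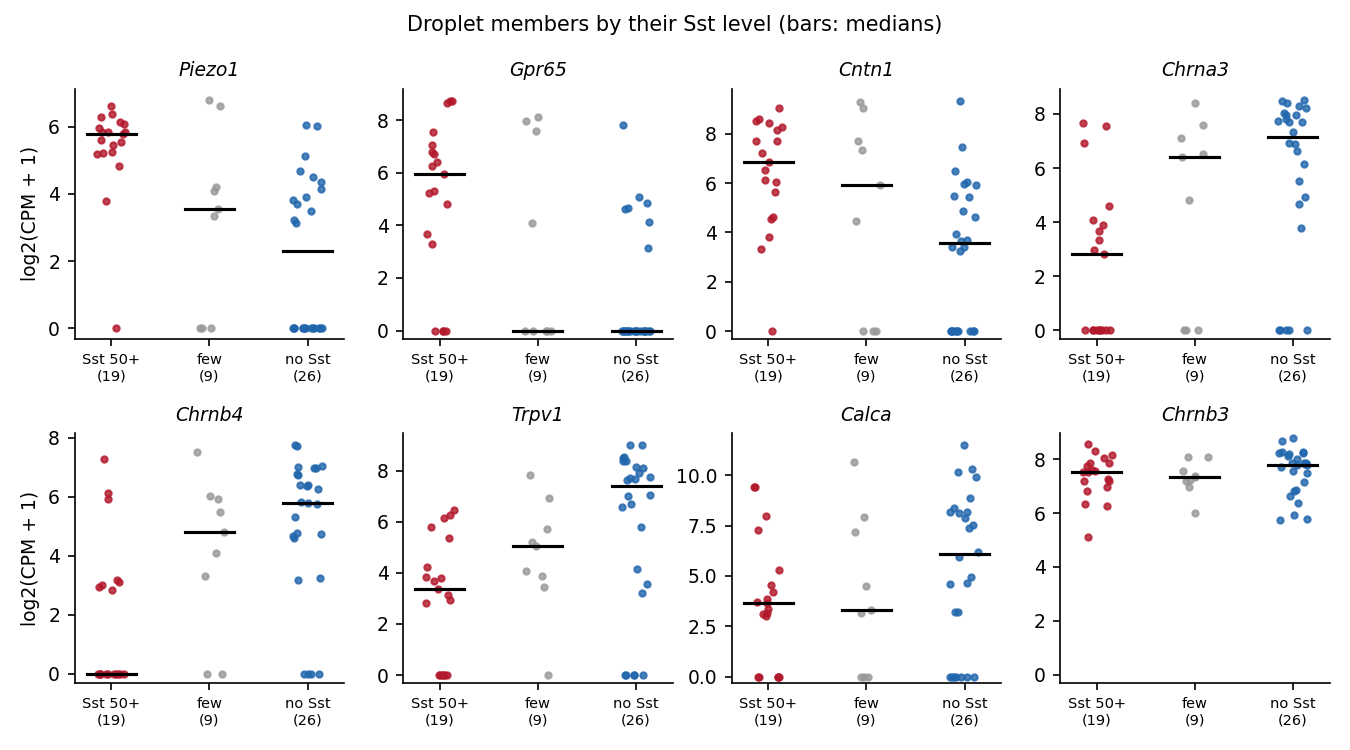
Levels (log2(CPM + 1)) of 8 genes in droplet members with Sst at 50 CPM or more (19, red), few Sst UMIs (9, grey) and 0 Sst UMIs (26, blue), with bars at the medians. Piezo1 and Cntn1 are high in the red set and Chrna3 and Trpv1 in the blue set, while the points of Chrnb3 overlap across all sets.

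The picked cells, which the score did not use, were then searched for the same type. A type cell had at least 3 of the 5 score genes at 10 reads or more, which held for 32.1% of the passing cells of 34 mice. The score of the last droplet member was reached by 22.3% of passing cells, and 98 of these were type cells. The remaining type cells lay below the score of every droplet member. Median depth was 1600561 reads in type cells and 1622519 in other cells. Of the type cells 1 had Prdm12 at 10 reads, 2 had Il31ra and 0 had Nppb. Cysltr2 reached 10 reads in 99.3% of type cells, Chrnb3 in 97.9%, Ctxn3 in 93.1%, Sst in 36.8% and Smagp in 28.5%. In other cells Cysltr2 did so in 52.8%, Chrnb3 in 31.8% and Ctxn3 in 10.5%, against 0.984% each for Sst and Smagp. As in the droplet library, Sst marked only some of these cells. Marker sums of other classes moved with the type. The nodose neuron markers summed to a median of 778.3 CPM in type cells and 3661 in other cells, and in the droplet library to 370.7 in members and 937.9 in other neurons. Sympathetic markers summed to 203.5 CPM in picked type cells against 84.5, Schwann cell markers to 1318 against 924.4 and satellite glia markers to 13.8 against 44.9. The part of these in the results below was not tested.

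Type and other cells were compared within 21 mice that had at least 3 of each (5.29 and 9.76 cells a mouse on average), with mouse means of log2(CPM + 1) tested in limma over 12685 genes. At a Benjamini-Hochberg adjusted p under 0.05, 1638 genes were higher in type cells (12.9%) and 1031 lower (8.13%). EdgeR on summed reads gave 1169 higher (9.22%) and 1398 lower (11%), so the balance of directions depends on the method. Of 27 genes named from the droplet library as over 2-fold higher, 25 could be tested, 23 rose and 0 fell. Chrnb1 and Tnfaip8 did not pass. Of 35 named as over 2-fold lower, 29 could be tested, 16 fell and 0 rose. Among the 13 that did not pass were Piezo2, Ntrk3 and Chrna4, with differences of -0.59 ± 0.28, -0.41 ± 0.22 and -0.37 ± 0.22. Among list genes outside these, Scn4b and P2ry2 went against the droplet library. They were at 0.379 and 0.438 times the other level in droplet members and rose in picked type cells, by 0.53 ± 0.17 (adjusted p = 0.0247) and 0.96 ± 0.29 (adjusted p = 0.0175).

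**Figure D3:**
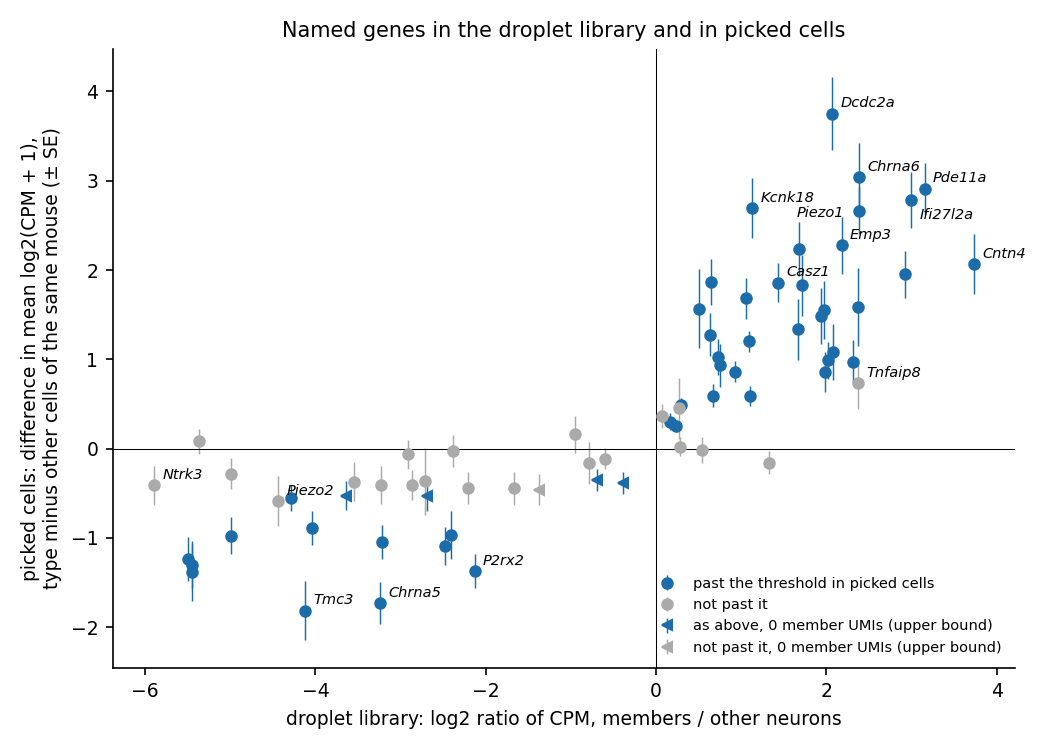
Named genes in both data sets: log2 ratio of CPM between droplet members and other neurons (horizontal) and difference in mean log2(CPM + 1) between picked type and other cells of the same 21 mice (vertical, bars ± SE). Blue points passed the adjusted threshold; 23 of 25 tested genes over 2-fold higher in members rose and 16 of 29 over 2-fold lower fell.

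Piezo1 rose in picked type cells. Over the 21 mice its mean log2(CPM + 1) ran from 2.89 to 5.74 in type cells (median 4.46) and from 0.53 to 5.67 in other cells (median 1.41). Type cells were above the other cells of the same mouse in 20 of 21 mice, by 2.66 ± 0.26 (SE, limma adjusted p = 1.13e-07). Kcnk18 rose by 2.69 ± 0.33 (adjusted p = 2.53e-06), with medians of 6.34 and 3.25. Tmc3 fell by 1.81 ± 0.33 (adjusted p = 0.000228) and was higher in type cells of 1 mouse only. Of 13 channels for mechanical stimuli and acid 3 rose and 1 fell. Of 12 TRP channels 2 rose and 5 fell, the latter including Trpv1 by 1.85 ± 0.42 (adjusted p = 0.00208) and the irritant receptor Trpa1 by 1.28 ± 0.23 (adjusted p = 0.000186).

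Nicotinic genes again differed in both directions. Chrna6 ran from 2.93 to 7.96 in type cells (median 6.19) and from 0.49 to 6.36 in other cells (median 2.66), a rise of 3.04 ± 0.38 (adjusted p = 2.67e-06) seen in 20 of 21 mice. Chrna3 ran from 1.58 to 9.09 in type cells (median 4.58) and from 6.75 to 9.49 in other cells (median 8.40). It fell by 3.20 ± 0.37 (adjusted p = 1.26e-06), with 1 mouse in the opposite direction. Chrnb4 fell by 2.69 ± 0.47 (adjusted p = 0.000149) and Chrna5 by 1.73 ± 0.24 (adjusted p = 7.9e-06). Of 8 nicotinic genes tested besides Chrnb3, 1 rose and 3 fell.

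Of 15 gut hormone and metabolite receptors 9 fell and 1 rose, with a median difference of -0.55 against 0.03 over all genes. Cckar fell by 2.66 ± 0.39 (adjusted p = 2.16e-05), from a median of 4.64 in other cells to 2.30. Glp1r, the GLP-1 receptor, fell by 1.36 ± 0.22 (adjusted p = 8.22e-05), with medians of 0.00 and 1.58. Npy2r, a receptor for peptide YY, fell by 1.38 ± 0.37 (adjusted p = 0.00849). Gpr65 rose by 1.57 ± 0.44 (adjusted p = 0.0121), but edgeR gave an adjusted p of 0.267, and 5 of 21 mice went the other way.

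Of 19 transcription factors 9 rose and 2 fell by adjusted p. In the droplet library 2 of 24 were over 2-fold higher and 9 lower, a count by ratio over another set of genes. Casz1 and Isl2 were higher in both counts and Phox2a lower in both, and none was counted in opposite directions. Pou4f1, a regulator of somatosensory neuron identity, rose by 2.64 ± 0.23 (adjusted p = 2.6e-08) in 21 of 21 mice. Casz1 rose by 1.86 ± 0.22 (adjusted p = 1.83e-06) and Isl2 by 1.20 ± 0.12 (adjusted p = 1.13e-07). Tbx3 fell by 1.28 ± 0.24 (adjusted p = 0.000411).

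Receptors for growth factors and lipids also moved. Gfra2 rose by 2.23 ± 0.30 (adjusted p = 7.03e-06), Gfra1 by 1.83 ± 0.34 (adjusted p = 0.000339), and of 10 neurotrophic factor receptors 4 rose and 0 fell. Ptger4, a receptor for prostaglandin E2, rose by 1.86 ± 0.26 (adjusted p = 9.74e-06), and 3 of 8 leukotriene and prostanoid receptors rose besides Cysltr2 of the definition, with 1 lower. Sphingosine phosphate receptor S1pr1, counted with the itch genes, rose by 1.47 ± 0.26 (adjusted p = 0.000158). Of 9 itch genes tested 4 rose and 2 fell.

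Of 13 peptide genes tested 2 rose, 5 fell and 6 did not pass, with a median difference of -0.02. Nmb rose by 1.34 ± 0.34 (adjusted p = 0.00613), Vip fell by 1.45 ± 0.37 (adjusted p = 0.00562) and Gal by 1.93 ± 0.40 (adjusted p = 0.000928). Cartpt, which was high in droplet members, differed by 0.62 ± 0.23 (adjusted p = 0.0587) with 12 of 21 mice higher, and edgeR gave an adjusted p of 0.997. Scn10a rose by 1.68 ± 0.23 (adjusted p = 7.72e-06) in 21 of 21 mice, and 8 of 20 fibre type genes rose and 2 fell. The dissociation and injury list had 0 of 13 past the threshold.

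Besides the genes named from the droplet library, the largest rises were those of Avil, an actin-binding protein of sensory neurons, Olfm3, Amigo3, Adam11, Plekhd1 and Thsd7a, at 2.93 to 3.60. Avil ran from 9.38 to 10.75 in type cells (median 10.20) and from 3.47 to 9.59 in other cells (median 6.08), and was higher in type cells of 21 of 21 mice (3.60 ± 0.37, adjusted p = 1.98e-07). The largest falls were those of Rab3c, Chrna3, St18, Kcnk3, Pcp4 and Chrnb4, at -2.69 to -3.20. St18, a zinc finger transcription factor, fell by 3.19 ± 0.39 (adjusted p = 2.52e-06), with medians of 0.35 and 3.99. Kcnk3, an acid-sensitive potassium channel, fell by 3.07 ± 0.39 (adjusted p = 3.54e-06).

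The difference between members with and without Sst could then be tested in cells the droplet sets had not used. Type cells with 10 or more Sst reads (34) were compared with type cells with 0 Sst reads (40) within 12 mice that had at least 2 of each. The picked cells were not clustered, so a mix of clusters in either set was not looked at. Of 12685 genes 2.36% were higher with Sst and 1.35% lower in limma, and edgeR called 0.52% higher (66 genes) and 0.639% lower (81 genes). Since Sst counts toward the definition of a type cell, cells with 3 of the other 4 score genes were compared too (10 mice), and 2.52% of genes were higher and 1.41% lower.

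Piezo1 was higher with Sst in 10 of 12 mice. Its mouse means ran from 4.56 to 7.31 with Sst (median 5.96) and from 0.83 to 5.58 without (median 3.42), a difference of 2.37 ± 0.43 (limma adjusted p = 0.00518; edgeR 0.118). Cntn1 ran from 5.24 to 8.60 with Sst and from 2.60 to 5.24 without, and was higher in 12 of 12 mice, by 3.42 ± 0.42 (adjusted p = 0.000365; edgeR 0.0567). P2ry1, a receptor for ADP, was higher in 12 of 12 mice by 3.44 ± 0.45 (adjusted p = 0.0006; edgeR 0.0801). Cdh6, Ntng1, Itgal and Ntsr1, the neurotensin receptor, rose by 2.62 to 2.87 and passed in both tools. Gpr65 differed by 2.40 ± 0.63 (adjusted p = 0.0424), with 10 of 12 mice higher and an edgeR adjusted p of 0.421. Among droplet members, Cdh6 showed no such rise, with UMIs in 1 of 19 members with Sst and 2 of 26 without. Itgal had a droplet median of 0 CPM in both sets. The droplet medians of Ntng1 were 44.8 CPM with Sst and 13.4 without, and those of Ntsr1 29.9 and 13.8.

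In the opposite direction, Calca ran from 0.00 to 2.28 with Sst (median 0.86) and from 0.61 to 9.41 without (median 4.04). It fell by 3.47 ± 0.66 (adjusted p = 0.00741; edgeR 0.00578), with 1 of 12 mice in the other direction. Trpv1 fell by 3.45 ± 0.57 (adjusted p = 0.00325; edgeR 0.0203). Kcns3, a modulatory potassium channel subunit, was lower with Sst in 12 of 12 mice, by -3.38 ± 0.43 (adjusted p = 0.00046; edgeR 0.0179). The droplet medians of Kcns3 were 0 CPM with Sst and 13.1 without. Chrna3 and Chrnb4 fell by 3.98 ± 0.76 (adjusted p = 0.00746) and 3.77 ± 0.71 (adjusted p = 0.00677), but edgeR gave adjusted p-values of 0.222 and 0.106. For Chrna3 the mice ran from 0.46 to 8.30 with Sst and from 0.49 to 9.64 without, and 2 of 12 were higher with Sst. Ctxn3 and Chrnb3 differed by 0.70 ± 0.23 and 0.96 ± 0.52, given with no test since they define the cells.

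By list, 6 of 20 fibre type genes were higher with Sst and 0 lower, among them the axonal potassium channels Kcna1 and Kcna2 and the neurofilament genes Nefl and Nefm. Of 13 neuropeptide genes 0 were higher and 2 lower, Calca and Calcb. Pcsk2, the convertase that cuts many peptide precursors, rose by 1.19 ± 0.16 (adjusted p = 0.000555; edgeR 0.00739). Drd2, a dopamine receptor, fell by 2.40 ± 0.44 (adjusted p = 0.00548; edgeR 0.00708). Cartpt differed by -1.64 ± 0.67 (adjusted p = 0.202) and S100a6 by 0.48 ± 0.66 (adjusted p = 0.774).

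**Figure D4:**
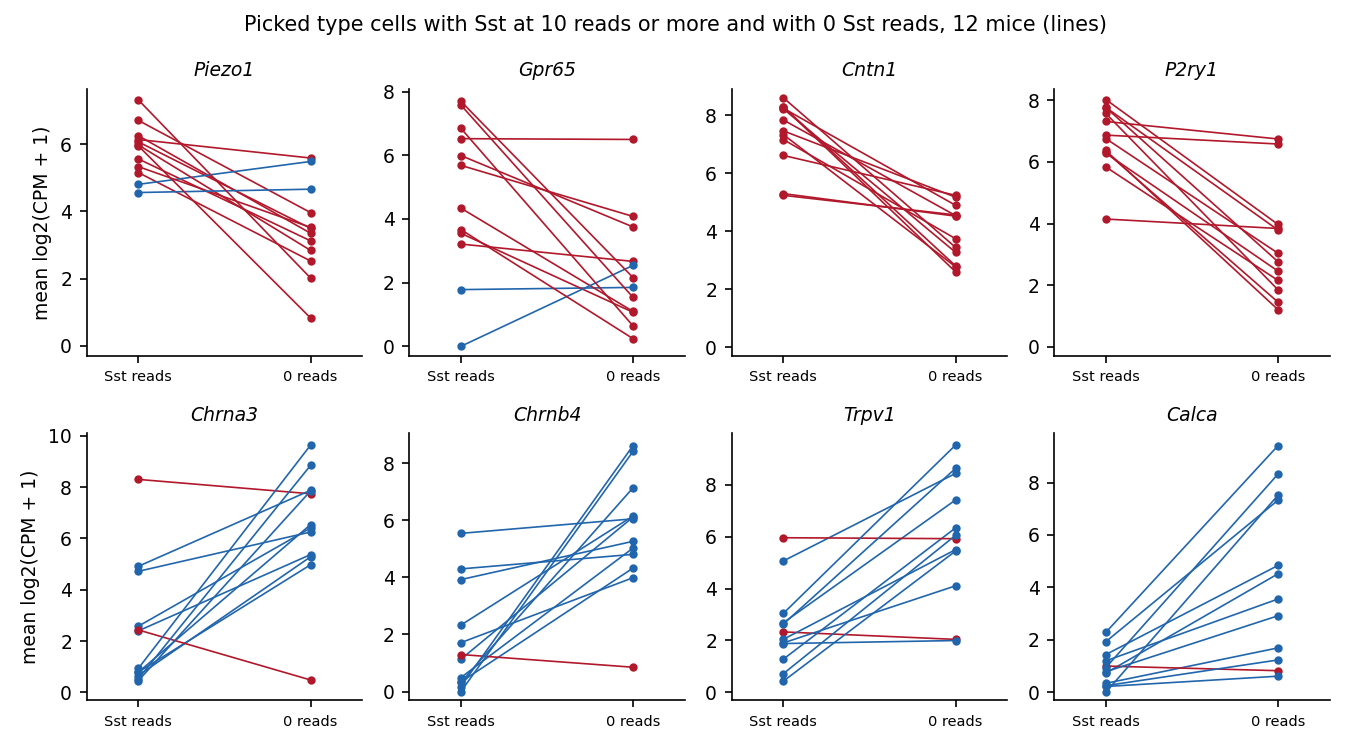
Mean log2(CPM + 1) of picked type cells with at least 10 Sst reads (left) and with 0 Sst reads (right), 1 line per mouse, 12 mice, for 8 genes; red lines are mice in which cells with Sst are higher, blue lines the others. Cntn1 and P2ry1 are higher with Sst in 12 of 12 mice, and Calca in 1 of 12.

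The share of type cells differed between target codes. In the 8 Gast mice it ran from 15.4% to 83.3% of passing cells with a mean of 55.2% ± 23.02 (SD), and in the 13 Int mice from 6.67% to 66.7% with a mean of 29.02% ± 18.9. The difference was 26.1 percentage points (exact two-sided permutation test over mice, p = 0.0120), and 7 of 8 Gast mice lay above the Int median. GastG mice averaged 48.2% (n = 5), GastP 66.7% (n = 3), IntP 46.2% (n = 4), IntM 13.8% (n = 3), IntD 30.1% (n = 3) and IntL 20.1% (n = 3). Port mice averaged 28.3% ± 13.7 (n = 8) and na mice 24.8% ± 20.8 (n = 4). The ranges of Gast and Int overlapped, and IntP had mice as high as many Gast mice.

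The difference depended on the mice and on the definition of a type cell. All Int mice are numbered up to 39, and with only such mice it was 44.1 points (73.1% in 4 Gast mice, exact permutation p = 0.00126). The Gast mice 7 to 10 had 62.5% to 83.3%, and mice 41 to 44 had 15.4% to 50%. With at least 2 of 5 score genes the difference was 5.09 points (exact permutation p = 0.590). With at least 4 it was 21.5 points (p = 0.000344, exact permutation), and with a score at or above that of the last droplet member 41.2 points (53.9% against 12.8%, exact permutation p = 0.000172). Type cells of Int mice also held less Ctxn3, with a median of 12.98 CPM against 355.8 in Gast mice, 134.7 in Port mice and 286.1 in na mice. Sst reached 10 reads in 20 of 54 type cells of Gast mice, 13 of 41 of Int mice, 12 of 35 of Port mice and 8 of 14 of na mice.

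**Figure D5:**
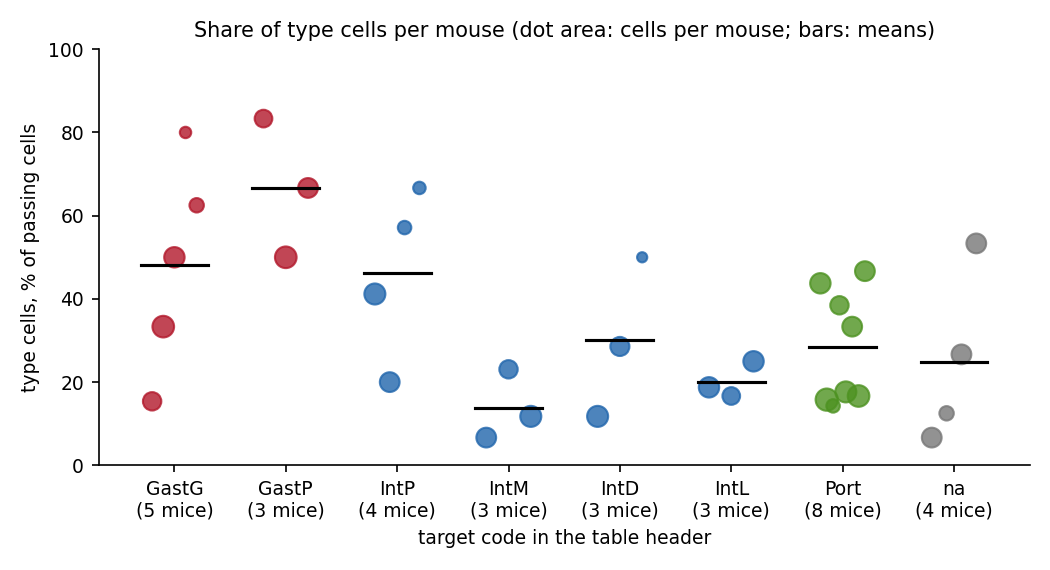
Share of type cells among passing cells of each mouse (dots, area by number of cells), by target code, with bars at the means over mice. GastP has the highest mean (66.7%) and IntM the lowest (13.8%), and single mice of GastG and IntP span much of the range.

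Averaged over all cells of a mouse, 2 of the 5 score genes were higher in Gast than in Int mice. In this fit 9.51% of 12690 genes were higher in Gast and 5.96% lower. Ctxn3 ran from 1.73 to 7.46 over 8 Gast mice (median 5.37) and from 0.11 to 3.27 over 13 Int mice (median 1.27), a difference of 3.93 ± 0.49 (limma adjusted p = 1.11e-06). Smagp differed by 1.43 ± 0.21 (adjusted p = 1.54e-05), with all 8 Gast mice above the Int median for both genes. Sst differed by 0.76 ± 0.31 (adjusted p = 0.0981), Cysltr2 by 0.75 ± 0.42 (adjusted p = 0.254) and Chrnb3 by 0.52 ± 0.60 (adjusted p = 0.627), and their ranges overlapped. In the same fit 5 of 13 dissociation and injury genes were higher in Gast mice (Jun, Junb, Jund, Egr1 and Dusp1) and 0 lower, with a median of 0.60, and the part of this in the marker values was not tested. In such means a larger number of type cells and more RNA per cell cannot be told apart.

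Within type cells, no gene separated GastG from GastP. With 4 and 3 mice 0 of 12685 genes passed in limma (0% higher and 0% lower), and 3.04% had an unadjusted p under 0.05. Normal values were simulated with the fitted spread and the same mice. In these, limma recovered 47% of genes changed by 1 on the log2 scale and 82% of those changed by 2. Smaller differences could thus be missed. Values at 0 reads and uneven numbers of cells per mouse were not simulated.

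Type cells of Gast and Port mice (7 mice each) differed in 16 genes, 10 higher in Gast (0.0788%) and 6 lower (0.0473%). Cntn4 ran from 4.11 to 6.79 in Gast (median 4.48) and from 0.99 to 4.03 in Port (median 2.22) with no overlap, and rose by 2.83 ± 0.45 (adjusted p = 0.0106). Lmo7, an actin-associated protein gene, rose by 2.06 ± 0.35 (adjusted p = 0.0218). Maob, monoamine oxidase B, fell by 2.58 ± 0.40 (adjusted p = 0.00962), and Cacna1e, an R-type calcium channel, by 2.46 ± 0.38 (adjusted p = 0.00962). P2rx2, an ATP-gated channel, fell by 1.14 ± 0.21 (adjusted p = 0.026). With type cells taken by the droplet score, or with mice numbered up to 39 only, 0 genes passed, and leaving out single mice gave from 2 genes (without GastP mouse 10) to 98 (without GastP mouse 44).

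Type cells of Gast and Int mice (7 and 8 mice, 52 and 32 cells) differed in 901 genes, with 3.33% of all tested higher in Gast and 3.77% lower. S100a6 ran from 6.68 to 9.84 in Gast (median 7.38) and from 0.47 to 3.42 in Int (median 2.47), a difference of 5.28 ± 0.58 (adjusted p = 3.85e-06). Cntn4 rose by 4.41 ± 0.45 (adjusted p = 2.23e-06), and Spon1, Th, Adam11 and Lgi1 by 3.44 to 4.55. Htr3a ran from 2.82 to 7.60 in Gast (median 5.36) and from 6.54 to 13.02 in Int (median 11.46), and fell by 5.57 ± 0.81 (adjusted p = 0.000118). Tmem54, Htr3b, Cacna1e, Nsg1 and Chrna3 fell by 3.49 to 4.47. Calca rose by 3.31 ± 0.54 (adjusted p = 0.000322), with no overlap between the groups.

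The type cells of these mice differed in their droplet score. Only 17 passing cells of Int mice (10.1%) reached the score of the last droplet member, against 52 of Gast mice (49.5%). Of the Int mice 2 had at least 3 such cells. With type cells taken by that score 0 genes passed in limma (1100 had an unadjusted p under 0.05), and the difference of Chrna3 turned from -3.49 to 0.29. With mice numbered up to 39 only, 2.75% of genes passed. How far the contrast compares 1 type in 2 targets or different cells under 1 definition cannot be told apart here.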

How the data were processed

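Droplet values are UMI counts per barcode and gene, deposited by the authors, made with Cell Ranger 2.0.1 on mm10 per the submitters' processing notes. Picked cells came as log2 read values, deposited by the authors with a floor of -5.64 that was read as 0 reads; 94.1% of values above it were whole reads within 1 part in 1000. For the picked cells, the sources used here name no aligner. 1 column of the read table matched no sample and was left out.

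Members and gene lists (16 lists, 249 genes) were chosen with earlier results of these data known. Droplet ratios are of summed UMIs, for genes with 20 UMIs, and named genes were the 2 highest and 2 lowest ratios per list plus the 12 highest and 8 lowest outside the lists, and in picked cells the 6 highest and 6 lowest past the threshold. Other list genes were named after their values were seen. Neurons were clustered with scanpy 1.11.5 and leidenalg 0.10.2. Picked cells with 2000 genes entered, with depths of 3934 to 4692462 reads. Means per mouse of log2(CPM + 1) were tested in limma 3.58.1 with the trend option, for genes with 10 reads in 5% of cells, with mouse as a block in comparisons within mice, where the same animal gave both sets. In comparisons of targets, mice of all codes with enough cells entered the fit and shared the spread. Adjusted p-values are Benjamini-Hochberg, with edgeR 4.0.16 quasi-likelihood on summed reads as alternative. Cells are not replicates, so mice were. Shares were compared by an exact permutation test over all splits of the mice, and the Poisson intervals were computed with scipy 1.17.1. Intervals and floors cover counting error only. The limma tests were checked on simulated normal values on the log2 scale, and edgeR for type against other cells on simulated counts. Pseudocounts, filters, definitions of a type cell and single mice were varied. Values of some genes are not reported here.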

Additional observations from a re-analysis of the deposited data

Results flagged for a closer look

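Among 24 sets of mouse values looked at, 1 stood apart. The mean log2(CPM + 1) of Sst over all cells of GastG mouse 7 was 3.181, while the other GastG mice lay between 0.422 and 1.085 (n = 5). Chance alone marks about 1 in 20 such sets.

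Mice with the code na were in neither group of a comparison of targets. In the limma fits of targets they helped set the spread, as did mice of all codes. They held 14 type cells among 53 passing cells, and 8 of these 14 had at least 10 Sst reads.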

How the results depend on the processing

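The count of droplet genes past 2-fold stayed between 2539 and 2814 with 40 or 70 members, a score without Sst, thinning, no Snap25 minimum or members left out. Nppb turned to 0.433 and Il31ra to 0.807 with the score without Sst, to 0.440 and 0.819 without the member of rank 37, and Chrnb1 to 0 when thinned. Without members and other neurons over 100000 UMIs, Chrna6 stood at 9.41-fold, Chrnb3 at 16.9-fold, Dbh at 2.40-fold and Lgals3 at 2.17-fold. Thinned, with members chosen anew, Ctxn3 stood at 30.2-fold and Ntrk3 at 0.119. The share difference fell to 5.09 points at 2 of 5 genes (p = 0.590, exact permutation) and ran from 22.1 to 31.8 without single Gast mice and to 44.1 with mice up to 39. For type against other cells, 21.04% of genes passed, and 11.2% did so at 4 of 5 genes, 12.2% at 100 reads per gene, 9.11% in Gast mice only and 18.8% to 21.7% without single mice. Without the mouse as a block (pairing by animal) 16.4% passed. Between cells with and without Sst 3.71% passed in limma and 1.16% in edgeR, and 2.10% (without mouse 9) to 4.56% without single mice; without mice 10 and 21 it was 2.41% and 2.17%. For Gast against Port 0% passed by the droplet score and 0% with mice up to 39, and 0.0158% to 0.773% without single mice. For Gast against Int 0% passed by the droplet score, 2.75% with mice up to 39 and 4.92% to 7.92% without single mice; by that score Chrna3 turned to 0.29, Chrnb4 to 1.21, Tbx3 to 0.80 and Syt2 to 0.64. Of the 5 marker means 1 passed with the filter at 20% of cells, where Sst and Smagp were not tested, 5 with mice up to 39, and 2 to 4 without single mice, with 4 when GastP mouse 44 was left out. GastG against GastP gave 0 throughout. The cause of these shifts was not tested, except that fewer mice or genes entered where so stated. The droplet library has 1 sample, so its values carry no replicate error.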
